A study of Mus musculus with 9 samples.

Results

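Cytosolic ribosomal protein genes were read from RNAseq of mouse submandibular glands (SMGs), a pair of salivary glands that secrete large amounts of protein. The members are the 83 of 17562 rows in the filtered expression table whose gene name is Rpl or Rps with a number and at most 2 further letters, or *Rplp0*, *Rplp1*, *Rplp2* or *Rpsa*. Names holding -ps, which marks pseudogenes, and the Rps6k kinase genes were left out. Of the 83, 50 are named for the large (60S) subunit and 33 for the small (40S) subunit, copies included. The name rule let in *Rpl37rt*, which is annotated as a transcribed processed pseudogene. Neither *Rpl37rt* nor *Rps4l* has a coding model in the annotation used here. The filter on low counts kept 80 for testing, and *Rpl39l*, *Rpl24* and *Rps27rt* did not pass it.

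The study asked what 3-O-sulfation of heparan sulfate does in this gland. The 9 libraries come from adult male mice, 4 wild type (WT) and 5 double knockout (DKO), with 1 library per mouse. DKO mice lack both *Hs3st3a1* and *Hs3st3b1*, which encode 3-O-sulfotransferases. They were made by a zinc finger nuclease deletion in the first exon of *Hs3st3a1* on top of a LacZ knockout allele of *Hs3st3b1*, on a C57BL/6 background, and the WT mice were littermates. Both deletions are constitutive, so every cell type of the gland carries them. The labels give no ages.

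The deleted genes matched the labels, since *Hs3st3a1* had 3 to 14 counts in each WT library and 0 in every DKO library, and *Hs3st3b1* had 67 to 216 counts in WT and 7 to 45 in DKO. Total counts ranged from 17053747 to 37870519 per library. Of 13842 genes tested, 87 (0.629%) were called by the quasi-likelihood test of edgeR at a Benjamini-Hochberg (BH) adjusted p under 0.05, of which 23 were higher and 64 lower in DKO. With library size alone as the scaling, 357 were called, 21 higher and 336 lower. Summed markers of 3 cell types of the gland did not overlap between the groups. Summed acinar markers (8 genes) ranged from 240863 to 352989 CPM in WT and from 370132 to 649397 CPM in DKO. Summed granular duct markers (7 genes) ranged from 26318 to 60935 CPM in WT and from 4077 to 20939 CPM in DKO. Myoepithelial markers (6 genes) ranged from 617 to 997 CPM in WT and from 237 to 557 CPM in DKO, and no gene of these 3 lists was at 0 in all libraries. By gene, the groups did not overlap for 3 of 7 tested acinar markers, all higher in DKO (2.49% of all genes). The same held for 5 of 7 granular duct and 5 of 6 myoepithelial markers, all lower in DKO (3.51% of all genes). The log2 fold change of 1 granular duct marker was above 0 (0.34). Of these markers edgeR called 0 acinar, 0 granular duct and 3 myoepithelial genes. In whole tissue, fewer cells of a type and less RNA per cell cannot be told apart. CPM is the gene's counts relative to the library's size after TMM scaling, which sets the libraries to a common level for most genes.

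A ribosome is made of a small and a large subunit, each a set of proteins held on ribosomal RNA, and the cell needs these proteins in matched amounts. Mammals keep a single active gene for most of them, together with many processed pseudogenes. Ribosomal protein mRNAs begin with a C followed by a run of pyrimidines, the terminal oligopyrimidine (TOP) tract, through which mTORC1 and the RNA-binding protein LARP1 control their translation as a group. Secretory cells are rich in ribosomes, and ribosomal protein mRNAs are widely used as references in qPCR. In this study *Rps29* served that purpose.

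The TOP tract is shown first because it is the sequence feature that the members are known to share. RefSeq start sites (GRCm38.p6) were at hand for 62 of the 83 members. Below, 15 bases before the annotated start and 15 bases from it on are given on the gene's strand, with the pyrimidine run that begins with C at the start in capitals. *Rps6* (minus strand, chr4:86857353-86857382), *Rps27* (minus strand, chr3:90213634-90213663), *Rps18* (minus strand, chr17:33955651-33955680), *Rpl15* (minus strand, chr14:18270972-18271001), *Rpl28* (plus strand, chr7:4792950-4792979) and *Rpl38* (plus strand, chr11:114668565-114668594) have such a run, and *Rplp0* (plus strand, chr5:115559452-115559481) and *Rps27l* (plus strand, chr9:66946071-66946100) are given as examples without it.
Rps6: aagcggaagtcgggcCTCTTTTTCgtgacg
Rps27: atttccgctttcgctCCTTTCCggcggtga
Rps18: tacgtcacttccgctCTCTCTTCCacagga
Rpl15: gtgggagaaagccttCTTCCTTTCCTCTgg
Rpl28: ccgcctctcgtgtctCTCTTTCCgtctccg
Rpl38: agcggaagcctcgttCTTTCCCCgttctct
Rplp0: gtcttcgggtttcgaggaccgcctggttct
Rps27l: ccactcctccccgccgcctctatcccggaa
A run of at least 5 pyrimidines beginning with C at the annotated base was found for 14 of the 62 members (22.6%) and for 2.96% of the 26963 other genes with a RefSeq window. A run of at least 8 within about 20 bases of the start, on the gene's strand, was found for 31 of the 62 and for 16.5% of the other genes. These counts depend on the annotated base, since a start placed a few bases away hides the tract, and a match is only a description. Members with the run at the start had log2 fold changes of 0.02 to 0.37 (13 tested, median 0.17), and the 46 tested members without it had -0.47 to 0.47 (median 0.21).

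In sum of counts the group was small in these libraries. How reads that match several genes were counted is not given, and 80 members share a stretch of 50 bases with another gene. The shares are therefore values of these counts and may miss reads of the members. The 83 genes took 0.567%, 0.565%, 0.548% and 0.578% of all counts in the 4 WT libraries. In the 5 DKO libraries they took 0.545%, 0.471%, 0.535%, 0.512% and 0.474%. Every DKO library was below every WT library, and the 95% exact binomial interval of a library's share was at most 0.00326 percentage points wide on either side, which covers counting error only. The 20 most abundant genes of the gland, however, took 56.0% ± 2.78 of the WT counts (SD over 4 libraries) and 65.2% ± 4.00 of the DKO counts (SD over 5). Among the counts outside these 20 genes the order was the opposite, with 1.15% to 1.37% on ribosomal protein genes in WT and 1.25% to 1.71% in DKO, and the groups overlapped. The share of all counts and the share of the remaining counts therefore gave different directions.

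**Figure D1:**
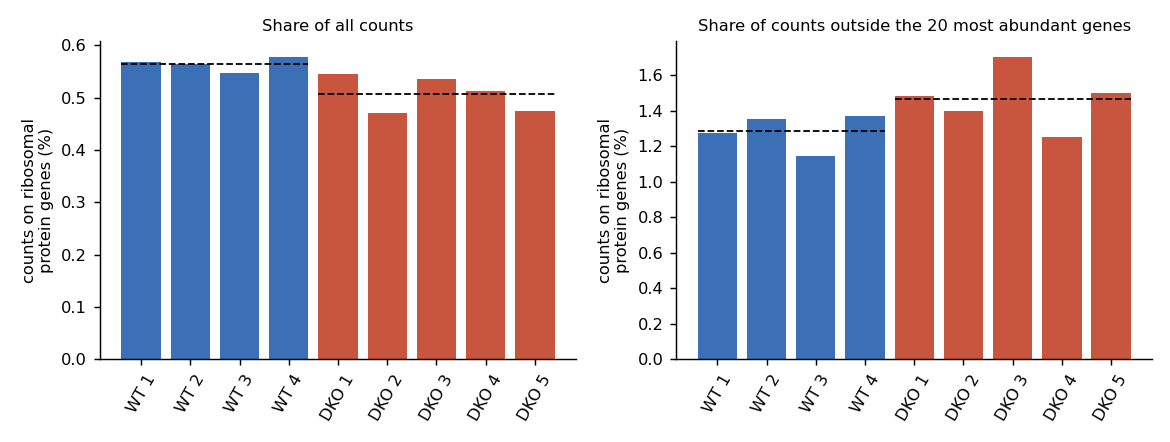
Share of counts (%) on the 83 ribosomal protein genes in each library, of all counts (left) and of the counts outside the 20 most abundant genes (right). Bars are single libraries (blue WT, red DKO) and dashed lines are group means. On the left all DKO bars are below the WT bars, while on the right the DKO mean (1.47%) is above the WT mean (1.29%) and the bars overlap.

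With TMM scaling, 72 of the 80 members tested had a log2 fold change above 0 (DKO over WT), where 52.5% of all genes tested did, but with library size alone 8 of 80 did. The median over members was 0.19 with TMM, beside 0.01 over all genes tested, and -0.12 with library size alone, beside -0.28 over all genes. Relative to the median of all genes the members were thus 0.18 higher with TMM and 0.16 higher with library size alone, so the change of sign is a shift shared by all genes. The 48 large subunit members had a median of 0.16 (42 above 0) and the 32 small subunit members a median of 0.21 (30 above 0), and both medians were negative with library size alone. No member was called. The count by edgeR was 0 of 80, where 0.629% of all genes were called. DESeq2's Wald test also called 0 members, where it called 4.45% of all genes, and limma-voom with quality weights called 0, where it called 1.07% of all genes. Members with an unadjusted p under 0.05 numbered 4 by edgeR (14.5% of all genes), 5 by DESeq2 (15.1% of all genes) and 1 by limma-voom (15.2% of all genes). Without DKO 4, 18 members had an unadjusted p under 0.05 by edgeR (16.8% of all genes). Without WT 1, WT 3 or DKO 5, 0 members had, where 1348 of 14165, 1531 of 14000 and 1762 of 13847 genes did in this order. Without DKO 3 the median over members was 0.10, and 0.09 relative to all genes. WT and DKO values overlapped for each of the 80 members, while among all genes 2.49% had every DKO library above every WT library and 3.51% had every one below.

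**Figure D2:**
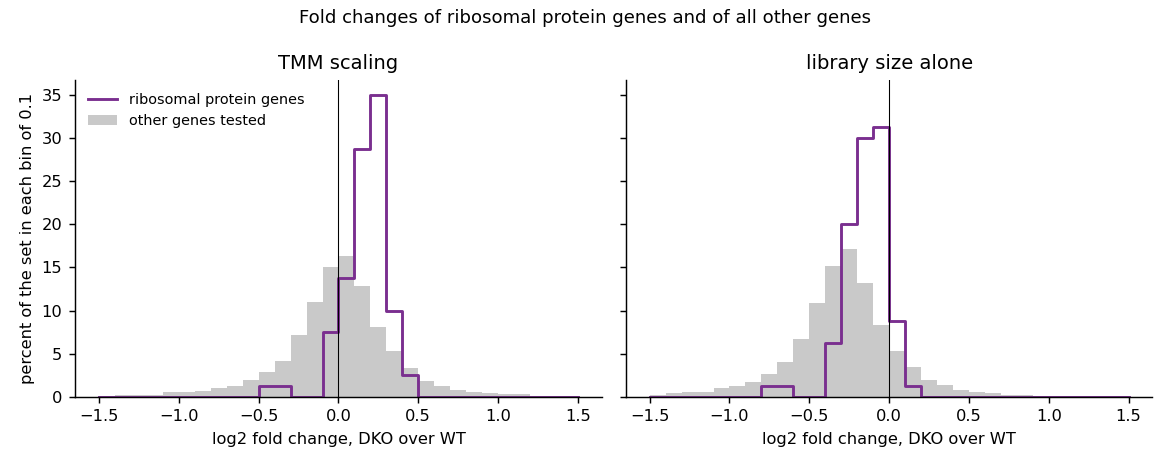
Log2 fold changes (DKO over WT) with TMM scaling (left) and with library size alone (right), as the percent of each set in bins of 0.1. The purple outline is the 80 ribosomal protein genes and the grey bars are the other genes tested, and the purple outline lies to the right of the centre of the grey bars in both panels while its median is 0.19 on the left and -0.12 on the right.

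The standard errors (SE) of the members' log2 fold changes ranged from 0.10 to 0.40 with a median of 0.14, so a shift of the size of the median could not be told from 0 for a single gene. Among the 4 members with the lowest p were *Rpl30*, *Rps2* and *Rpl32*. *Rpl30* (chromosome 15, 34440505 to 34443640, minus strand, GRCm38), which encodes a large subunit protein, measured 15.8, 16.5, 15.1 and 16.1 CPM in WT and 21.2, 17.6, 24.3, 15.3 and 20.4 CPM in DKO. All DKO libraries but DKO 4 were above the WT libraries. Its log2 fold change was 0.32 (SE 0.13, BH-adjusted p = 0.298 in edgeR's quasi-likelihood fit). *Rps2* measured 18.5 to 21.5 CPM in WT and 20.6 to 27.2 CPM in DKO (0.24), and *Rpl32* 67.9 to 91.0 CPM in WT and 75.5 to 125.9 CPM in DKO (0.32). Such an arrangement, with 4 DKO libraries above every WT library, was found for 11 of the 80 members (8.03% of all genes had at least 4). The DKO library that was not above was DKO 4 in 10 of the 11.

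The other ends of the range were no clearer. The highest log2 fold changes were those of *Rps28* (0.47), *Rpl23* (0.41), *Rps27* (0.37), *Rpl36a* (0.36) and *Rps27l* (0.33), with BH-adjusted p from 0.440 to 0.590 in edgeR. The lowest were those of *Rpl3l* (-0.47), *Rps4l* (-0.32), *Rpl10a* (-0.08), *Rpl3* (-0.05) and *Rpl36al* (-0.03), with BH-adjusted p from 0.452 to 0.940 in edgeR. *Rpl3* turned above 0 without DKO 2 (0.04) or DKO 4 (0.01), and *Rpl36al* without WT 1 (0.02), WT 4 (0.03) or DKO 4 (0.02). Of 35 selected genes that were tested, 5 of them outside the name rule, 24 changed sign with library size alone.

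The members moved together from library to library. Of the 83 members, 52 had their highest CPM in DKO 3 and 21 in DKO 5, and 46 had their lowest in WT 3 and 12 in DKO 4. In DKO 3, 78 of the 80 tested members were above their own mean over the 9 libraries, and in DKO 4, 75 were below it. The median deviation of the members from their own means (log2 CPM) was -0.02, -0.09, -0.24 and -0.01 in WT 1 to 4 and 0.07, 0.00, 0.33, -0.21 and 0.16 in DKO 1 to 5, so the 2 groups overlapped. Over all genes tested the same median lay between -0.01 and 0.01 in each library, which TMM scaling sets near 0. Taking out 1 value per library removed 49.9% of the squared deviations of the members. The same step removed 32.7% for 25 translation factors of the TOP class, 28.6% for 60 ribosome biogenesis factors and 22.2% for 77 mitochondrial ribosomal protein genes. These shares are descriptions of 9 libraries, with no test. The deviations are from means over all 9 libraries, so they hold the difference between genotypes as well as movement within them.

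Short members varied more than long ones. The tested members with a coding model were divided by coding length into 26 short (75 to 396 bp), 26 middle (399 to 564 bp) and 26 long (576 to 1257 bp) genes. In WT 3 the short members were lower by a median deviation of -0.57 and the long ones by -0.09, and in DKO 4 these values were -0.38 and -0.12. In DKO 5 the short members deviated by 0.33 and the long ones by 0.05, in WT 4 by 0.17 and -0.05, and in DKO 2 by 0.16 and -0.07. DKO 3 stood apart in a different way, since its long members (0.37) deviated at least as far as its short ones (0.26). The short-minus-long difference thus ran from -0.48 (WT 3) to 0.28 (DKO 5), with both genotypes on both sides of 0. Among genes that are no members and have the same coding lengths, it ran from -0.10 to 0.08. The median within-group SD of log2 CPM was 0.32 for short, 0.21 for middle and 0.17 for long members. Of the 10 most variable members, 8 were short, and of the 10 least variable, 0. Short members also had lower levels (median 24.5 CPM against 79.6 CPM for long ones), and the part of counting error in their spread was not tested.

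**Figure D3:**
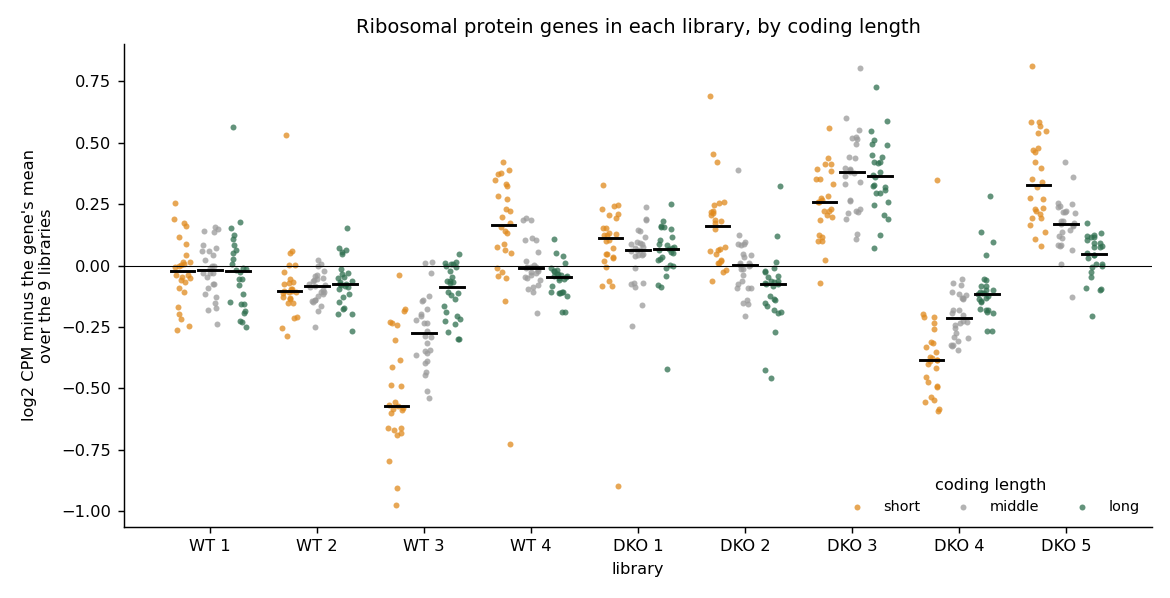
Deviation of each ribosomal protein gene from its own mean over the 9 libraries (log2 CPM, TMM scaling), for the 78 tested members with a coding model. Points are genes, colours are classes of coding length (26 each) and black lines are class medians. WT 3 and DKO 4 have their short members lowest, in DKO 1, DKO 2, DKO 5 and WT 4 the short class has the highest of the 3 medians, and in DKO 3 all 3 classes are high.

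Other values of these libraries are as follows, and not all of them ran with the members. DKO 3, where the members were highest, had the highest summed acinar markers (649397 CPM), the lowest granular duct markers (4077 CPM) and the largest share of counts on the 20 most abundant genes (68.7%), while DKO 4 had the lowest acinar sum (370132 CPM) and the lowest top share (59.1%) of the DKO group. Both values of DKO 4 were above those of every WT library, and its members had a lower median deviation than in WT 1, WT 2 and WT 4. The acinar sum and the top share count some of the same reads, so they are not separate traits of a library. WT 3 and WT 1 had acinar sums of 240863 and 241139 CPM, with median deviations of the members of -0.24 and -0.02. WT 3 was the most deeply sequenced library and DKO 5 the least. Summed B and plasma cell markers (7 genes) were highest in DKO 4 (527 CPM), DKO 1 (485 CPM) and WT 3 (451 CPM) and lowest in DKO 2 (29.7 CPM). Summed T cell markers (6 genes) were between 0.37 and 2.43 CPM in all libraries. Summed parotid markers (3 genes) were 8069 CPM in DKO 1 and at most 92.1 CPM elsewhere. The part of these in the level of ribosomal protein genes was not tested.

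*Rps29* (ENSMUSG00000034892), the qPCR reference of the study, encodes a small zinc-binding protein of the 40S subunit and lies on chromosome 12 from 69157722 to 69159186, minus strand. It measured 16.2, 15.7, 11.4 and 23.1 CPM in WT (16.6 ± 4.83, SD, n = 4) and 18.1, 21.0, 18.8, 12.3 and 26.2 CPM in DKO (19.3 ± 5.03, SD, n = 5). WT 3 and DKO 4 were the low libraries and WT 4 and DKO 5 the high ones, so the groups overlapped widely. The log2 fold change was 0.21 with TMM and -0.10 with library size alone (SE 0.23 and BH-adjusted p = 0.738 with TMM in edgeR). A two-sided exact permutation test on log2 CPM gave p = 0.429, where the smallest possible is 0.00794. The genotypes therefore did not differ beyond the spread, but the spread itself was wide. The highest library was 2.30 times the lowest, and 72 of the other 79 members tested and 85.1% of the other genes had a smaller within-group SD of log2 CPM. The 5 genes whose log2 CPM ran most like that of *Rps29* over the 9 libraries were *Rpl37* (Pearson r = 0.984), *Rps28* (0.982), *Rpl36* (0.979), *Rpl37rt* (0.979) and *Rpl38* (0.974). All are members, and those with a coding model are in the short class. Genes outside the members came close behind, with *Romo1* at 0.968, *Atp5mpl* at 0.957 and *Dcaf6*, with a coding length of 2628 bp, at 0.957. All these genes share libraries, depth and scaling with *Rps29*, and r is given as a description.

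Among the most even members were *Rps15* and *Rpl10*, each with a within-group SD of log2 CPM of 0.12. *Rps15*, a protein of the small subunit, measured 51.1, 43.7, 44.9 and 48.5 CPM in WT and 51.3, 46.9, 57.6, 46.6 and 51.9 CPM in DKO. The groups overlapped, and the log2 fold change was 0.11 (SE 0.10, BH-adjusted p = 0.674 in edgeR). The most variable were *Rpl34*, *Rps28* and *Rps27* (SD 0.60, 0.51 and 0.50).

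*Rpl34*, a large subunit protein gene on chromosome 3 (130726831 to 130730398, minus strand), did not follow the other members. It measured 42.9, 54.9, 25.2 and 22.7 CPM in WT and 20.1, 61.4, 41.4, 48.3 and 48.1 CPM in DKO. WT 3, WT 4 and DKO 1 were near 20 to 25 CPM and the remaining 6 libraries were above 41 CPM. DKO 4, low for most members, was among the high libraries here, and WT 4, high for short members, was among the low ones. The log2 fold change was 0.27 (SE 0.32, BH-adjusted p = 0.772 in edgeR). *Rps28*, in contrast, had the pattern of *Rps29* with larger steps, at 15.3, 15.6, 9.48 and 23.3 CPM in WT and 19.9, 24.6, 21.9, 11.9 and 32.4 CPM in DKO.

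**Figure D4:**
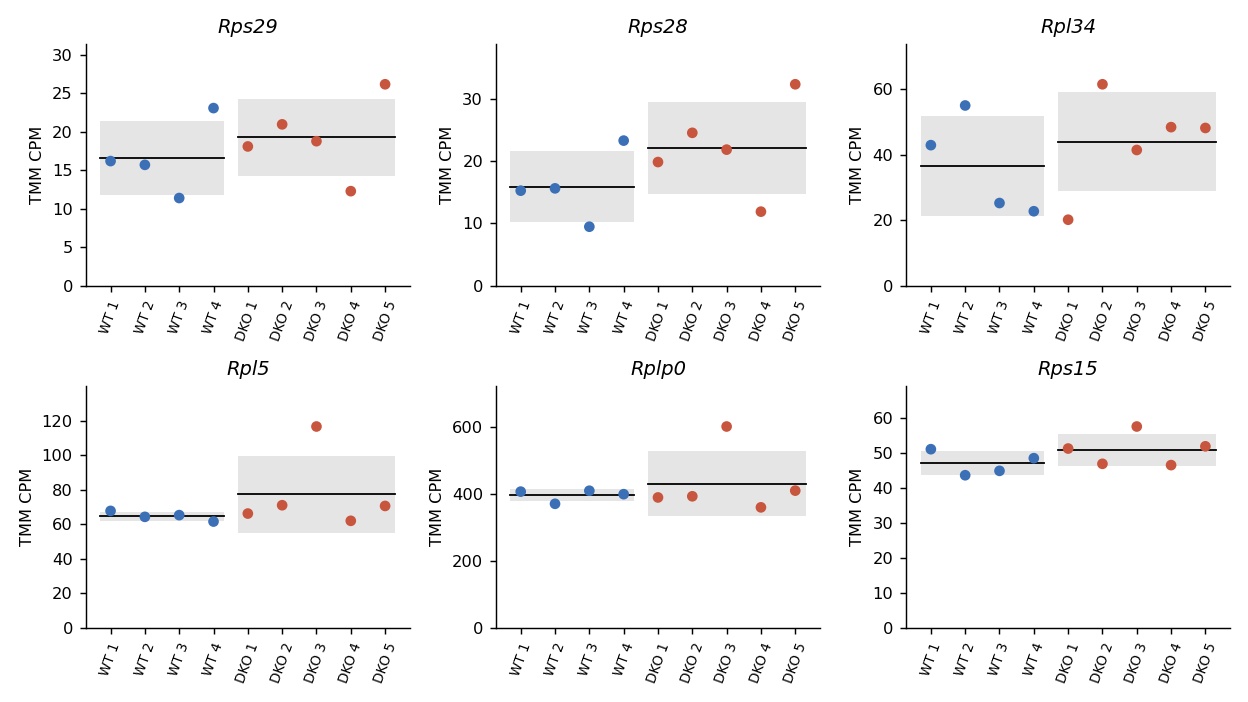
TMM CPM of 6 ribosomal protein genes in each library (blue WT, red DKO), with the group mean (line) and 1 SD on either side (grey band). *Rps29* and *Rps28* are lowest in WT 3 and DKO 4 and highest in DKO 5, *Rpl34* is low in WT 3, WT 4 and DKO 1, *Rpl5* and *Rplp0* are high in DKO 3 alone, and *Rps15* stays between 43.7 and 57.6 CPM.

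The stalk of the large subunit recruits translation factors and is built of *Rplp0* with pairs of *Rplp1* and *Rplp2*. *Rplp0* measured 407, 371, 410 and 400 CPM in WT and 390, 393, 602, 360 and 410 CPM in DKO (log2 fold change 0.12). DKO 3 was far above the others, and without it the log2 fold change was -0.03. *Rplp1* measured 48.4 to 63.7 CPM in WT and 45.8 to 68.9 CPM in DKO (0.05), and *Rplp2* 52.6 to 56.7 CPM in WT and 41.9 to 62.8 CPM in DKO (0.02). Both fold changes turned below 0 when single libraries were left out, *Rplp1* to -0.02 without WT 3 or DKO 5 and to -0.0044 without DKO 3, and *Rplp2* to -0.03 without DKO 2 and to -0.02 without DKO 3. *Rpl5* and *Rpl11* form, with 5S RNA, the particle that binds MDM2 when ribosome assembly fails. *Rpl5* measured 67.7, 64.3, 65.3 and 61.5 CPM in WT and 66.2, 71.0, 117, 62.0 and 70.6 CPM in DKO (log2 fold change 0.26, SE 0.17). Without DKO 3 its log2 fold change was 0.06. *Rpl11* measured 46.1 to 50.5 CPM in WT and 45.6 to 60.7 CPM in DKO (0.14). The fold changes of these 5 genes had BH-adjusted p from 0.556 to 0.964 in edgeR.

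*Rps6*, the substrate of S6 kinase, measured 96.2 to 105 CPM in WT and 92.8 to 140 CPM in DKO (log2 fold change 0.10). *Rpsa*, the small subunit protein also described as a laminin receptor, measured 23.0 to 28.8 CPM in WT and 25.7 to 38.1 CPM in DKO (0.15). *Rpl10*, which is added last to the large subunit, measured 84.9 to 97.8 CPM in WT and 87.6 to 112 CPM in DKO (0.11). The highest library of these 3 genes was DKO 3, and without it the log2 fold change of *Rps6* was -0.0028. *Rpl41*, which encodes the shortest of the ribosomal proteins, measured 102 to 180 CPM in WT and 123 to 196 CPM in DKO (0.28). Its highest library was DKO 5. None of the 4 was called, with BH-adjusted p from 0.541 to 0.786 in edgeR.

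Per kb of exon, mean levels over the 9 libraries ranged from 0.31 to 319 CPM per kb among tested members, with a median of 49.7. The most abundant were *Rps14* (319), *Rps27l* (315) and *Rpl3* (315), and the least abundant of all 83 were *Rpl39l* (0.082), *Rpl3l* (0.31) and *Rpl24* (0.45). *Rpl24* encodes a core protein of the large subunit, yet it had 3 to 18 counts per library. Most members share sequence with other annotated genes, whose types were not counted. Of the 83, 80 share at least 1 stretch of 50 bases with another gene of GENCODE M21, and 45 share more than 50 percent of such stretches, among them *Rpl24* (81.7%). The sources used here do not say how reads that match several genes were counted. Levels of single members and of their sum are therefore uncertain. The low count of *Rpl24* is a value of this table and not a measured absence of its mRNA. The rows named as pseudogenes (64 in the table) held 1914 to 5325 counts per library, beside 80862 to 207418 on the members.

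Several members are copies of another, with their own expression pattern in other tissues. *Rps27l*, a p53-responsive copy of *Rps27*, measured 153, 139, 96.6 and 161 CPM in WT and 152, 178, 204, 117 and 213 CPM in DKO. *Rps27* measured 21.5, 23.5, 12.4 and 32.2 CPM in WT and 31.1, 34.1, 26.5, 16.7 and 36.4 CPM in DKO. Both were lowest in WT 3 and highest in DKO 5. Per kb of exon the copy was 3.38 to 5.41 times the counterpart in every library, but *Rps27* shares 98.6% of its 50-base stretches with other genes and *Rps27l* 22.4%, so the ratio cannot be taken as that of the mRNAs. *Rpl36al* was 2.21 to 4.13 times *Rpl36a* per kb, with shared stretches of 63.3% and 85.5%.

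*Rpl37rt*, annotated as a transcribed processed pseudogene, measured 4.6 to 10.5 CPM in WT and 5.77 to 13.1 CPM in DKO. It had 146 to 258 counts per library and was 0.544 to 0.691 times *Rpl37* per kb, with shared stretches of 73.8% and 31.3%.

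*Rpl3l*, *Rps4l*, *Rpl39l* and *Rps27rt* were low. *Rpl3l*, a copy known from heart and skeletal muscle, had 4 to 20 counts per library (0.30 to 0.85 CPM in WT, 0.16 to 0.47 CPM in DKO) and was 543 to 1934 times lower per kb than *Rpl3*. It shares no 50-base stretch with another gene. *Rps4l* measured 1.99 to 2.72 CPM in WT and 1.74 to 2.23 CPM in DKO, so the groups overlapped. In this gene 4 DKO libraries were below every WT library, an arrangement that was not counted over all genes. Its log2 fold change was -0.32 (BH-adjusted p = 0.452 in edgeR). *Rps4x*, its counterpart on chromosome X, measured 93.2 to 105 CPM in WT and 97.1 to 156 CPM in DKO (0.27). *Rpl39l*, known from testis, had 0 counts in 5 libraries, 1 count in WT 4, DKO 1 and DKO 5, and 11 counts in DKO 2, where a count of 0 allows up to 0.066 to 0.137 CPM (3 counts), and its counterpart *Rpl39* measured 6.83 to 13.9 CPM. *Rps27rt* had 3 to 19 counts per library, and *Rpl10l* was not among the rows of the filtered table.

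**Figure D5:**
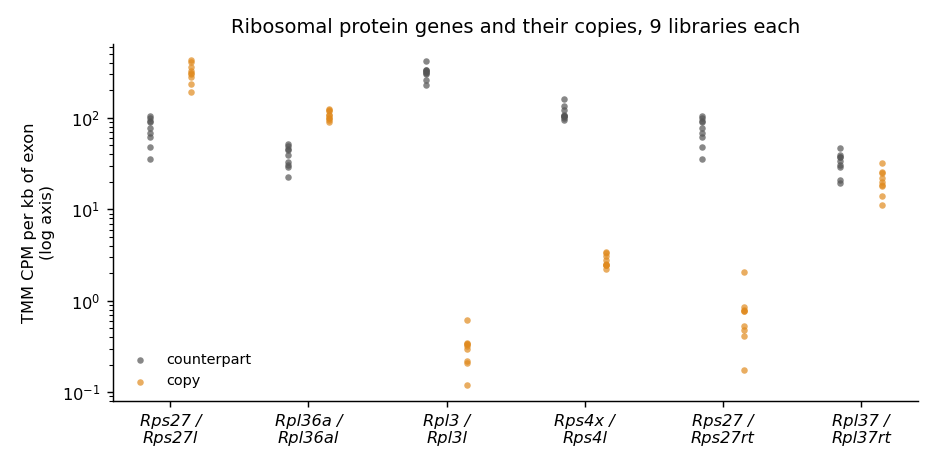
Level per kb of exon (TMM CPM per kb, log axis) of 6 copies (orange) and their counterparts (grey), with 1 point per library for 9 libraries. *Rps27l* and *Rpl36al* are above their counterparts in every library, while *Rpl3l*, *Rps4l*, *Rps27rt* and *Rpl37rt* are below.

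A few ribosomal proteins have names outside the rule. *Fau*, which encodes the small subunit protein eS30 fused to a ubiquitin-like protein, measured 32.7 to 43.5 CPM in WT and 34.6 to 53.0 CPM in DKO (log2 fold change 0.19). *Rack1*, a scaffold on the small subunit, measured 174 to 203 CPM in WT and 173 to 225 CPM in DKO (0.03, and -0.04 without DKO 3). *Rps3a1* (0.14) and *Rpl22l1* (0.30) were within the range of the members. Of these 4 genes 0 were called by edgeR and 0 by DESeq2, with 0 at an unadjusted p under 0.05.

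The genes that act with the ribosomal proteins were read from lists in the same way. Of 25 translation factors of the TOP class, 22 had a log2 fold change above 0 with TMM (median 0.13), where 52.5% of all genes did. Of 60 ribosome biogenesis factors tested, 42 did (median 0.08), and of 77 mitochondrial ribosomal protein genes, 50 (median 0.04). Of 20 mTORC1 and TOP mRNA regulators tested, 15 did (median 0.18). Each of these medians was negative with library size alone. Without DKO 3 they were 0.05, -0.0046, 0.01 and 0.10 in this order, and without WT 3 the mitochondrial median was 0.0091. No gene of these 4 lists was called by edgeR, with 2, 3, 2 and 3 genes in this order at an unadjusted p under 0.05, where 14.5% of all genes were. The first 3 lists lay below that share and the regulators, with 3 of 20, near it.

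DESeq2's Wald test called 3 of the 182 genes of these lists (1.65%), a smaller share than the 4.45% of all genes. All 3 were higher in DKO and are named here after their values were seen. Every DKO library was above every WT library for 7 of the 182 (3.85%, beside 2.49% of all genes). *Rps6ka1*, which encodes the ERK-activated kinase RSK1 that phosphorylates ribosomal protein S6, measured 16.6, 22.4, 25.6 and 21.7 CPM in WT and 28.8, 37.1, 38.8, 31.2 and 37.8 CPM in DKO. The groups did not overlap, and its log2 fold change was 0.68 (SE 0.14), with a BH-adjusted p = 0.0506 in edgeR and 0.00109 in DESeq2. *Deptor*, an inhibitor of mTOR, measured 99.5 to 129 CPM in WT and 139 to 191 CPM in DKO, and the groups did not overlap (log2 fold change 0.49). *Eif4b*, a cofactor of the eIF4A helicase, measured 33.8 to 47.3 CPM in WT and 49.2 to 59.5 CPM in DKO, again with no overlap (0.38). For *Deptor* and *Eif4b* the BH-adjusted p was 0.0813 and 0.132 in edgeR and 0.00665 and 0.0410 in DESeq2.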

How the data were processed

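RNA of 9 SMGs was sequenced by the authors on a HiSeq2500 from unstranded Nextera XT libraries. The submitters' processing notes name STAR 2.5.2a and the builds GRCm38/mm10 and GRCh38. The counting tool and annotation are not given in the sources used here. The authors deposited raw counts (48733 rows), the same counts on 17562 rows, and these as a TMM-scaled CPM signal. All 158058 signal values (100%) gave back whole reads within 0.01 of a read. The count test on the deposited counts of the 17562 rows, which equal the raw counts, called 87 genes and repeats the main fit. Transgene and spike-in rows (24) held at most 0.000156% of a library's counts.

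Raw counts were fitted with edgeR 4.0.16 (TMM, filterByExpr with minimum count 10 and total 15, quasi-likelihood test, genotype alone, Benjamini-Hochberg adjustment over 13842 genes, threshold 0.05). Standard errors are the log2 fold change over the square root of F. DESeq2 1.42.0 and limma 3.58.1 were alternatives, and the code was tested on simulated data. Log2 CPM has 0.5 added. Exon and coding lengths and shared 50-base stretches came from GENCODE M21. Members and lists were chosen with earlier results of these data known. Named genes are reference, stalk and 5S particle genes, *Rps6*, *Rpsa*, *Rpl10*, *Rpl41*, copies, proteins outside the name rule, the 5 highest and lowest fold changes, the 3 most and least abundant per kb and the 3 most and least variable. P-values measure the spread between these mice, with 1 library each. Each library's depth is given as its total count. Of the genes this rule names and those with the lowest p, 3 are not reported here.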

Additional observations from a re-analysis of the deposited data

Results flagged for a closer look

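Dixon's test was run in 76 groups (the named genes, the share of counts and the summed level of each subunit, in WT and DKO). Of these, 4 held a library far from the rest, where chance gives about 1 in 20. The number of flags is thus near what chance gives. All 4 are DKO 3 as the highest library of its group. *Rplp0* was at 602 CPM beside 360 to 410 CPM in the other 4 DKO libraries, *Rpl5* at 117 CPM beside 62.0 to 71.0 CPM, *Rpsa* at 38.1 CPM beside 25.7 to 28.7 CPM, and *Rack1* at 225 CPM beside 173 to 187 CPM. The 4 values come from 1 mouse and are not independent of each other.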

How the results depend on the processing

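The count of 0 members called did not change under any of the 24 alternative settings, 2 of them chosen after seeing the data. Under some settings, such as the replicate block, 0 genes were called over the whole table, so 0 members was the only possible outcome. Under others 1 to 5 genes were called, and the setting with the filtered counts repeats the main fit. The largest count over all genes was 616, by DESeq2 (4.45%). Members with an unadjusted p under 0.05 numbered 0 to 18 over the settings. They were 18 without DKO replicate 4, which is 22.5% of members beside 16.8% of all genes. They were 0 with the replicate block and without WT replicate 1 or 3 or DKO replicate 5. With the replicate block 2024 of 13842 genes had such a p, and over the settings 9.52% to 25.4% of all genes did. Library size alone reversed the members' median (-0.12) and *Rps29* (-0.10) and left 8 members above 0. A denominator without the 20 most abundant genes turned the DKO-minus-WT difference in the share of counts from -0.06 to 0.18 percentage points. Relative to all genes the members' median was 0.09 to 0.22 over the settings that leave out 1 library and the members above the median of all genes numbered 60 to 76. With 1 library left out, the members' median was 0.10 to 0.24, members above 0 numbered 63 to 76, *Rps29* was at 0.07 to 0.41 and the share differed by -0.07 to -0.05 percentage points. Without WT replicate 3 and DKO replicate 4 together, 0 members and 0 of all genes were called, and 73 members were above 0 (median 0.19).

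The count over all genes was less stable. It was 87 as reported, 5 with upper-quartile factors, 357 with library size alone, 2 with library size without the 20 most abundant genes, 347 with no filter, 616 with DESeq2, 148 with limma-voom, 4 with limma on deposited CPM + 0.1, 332 with the block from title numbers and 0 without WT replicate 3 and DKO replicate 4. With 1 library left out it was 0 to 441, with 441 without DKO replicate 4, 306 without WT replicate 2, 2 without DKO replicate 3, 1 without DKO replicate 1 and 0 without any other. The cause was not tested. The replicate block gave 0 calls over all genes and 0 among members. Same-numbered libraries correlated by 0.01 to 0.35 in their deviations from group means, with 3 of 4 pairs over 0.1, and 5 of 8 libraries correlated best with their own number. This is a hint of pairing from the data. Neither the labels nor all 4 pairs give it, so the fit without the block was kept, and the 87 calls over all genes rest on that choice. DKO replicate 5 has no WT partner, so under the block it adds nothing to the genotype term. Leaving it out without a block also gave 0 calls, and the part of pairing in the 0 calls was not tested. Of the 80 members, 76 had at least 100 counts in every library, and the part of counting error in the SEs was not tested.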
